A study of Mus musculus with 8 samples.

Results

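The Sprouty and Spred feedback inhibitors described here are Spry1, Spry2, Spry4, Spred1, Spred2 and Il17rd, 6 of the 21154 genes named on the array and 6 of the 15180 tested. They were taken by gene, with every probe whose accession belongs to them: 8 of 55681 probes, 3 of them for Spred1 and 1 for each of the others. RNA came from mouse embryonic stem (ES) cells that are H-Ras-/-, N-Ras-/- and RERTert/ert, in which 4-hydroxytamoxifen (OHT) is meant to leave no RAS. The groups were ERF-KO cells given OHT for at least 2 days, ERF-KO cells left untreated, ERF-WT cells given OHT and ERF-WT cells left untreated, with 2 one-colour arrays each. All 4 groups share the H-Ras and N-Ras deletions, the RERTert/ert alleles, gelatin without a named feeder layer, serum and LIF. Each sample mixed 2 clones. The source names give 4 cell pools, A2 and B2 of the ERF-KO genotype and A1 and B1 of ERF-WT, and each pool was sampled with and without OHT. No group given OHT is labelled as keeping RAS, so effects of OHT itself and of losing RAS cannot be told apart.

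Sprouty and Spred proteins are brakes on receptor tyrosine kinase signalling that the pathway itself switches on. Fibroblast growth factor (FGF) receptors activate RAS, then the kinases RAF, MEK and ERK, and ERK-driven transcription raises Sprouty and Spred RNA, whose products dampen the signal in turn. Il17rd, also called Sef, is a membrane protein that restrains FGF signalling and belongs to the same set of FGF-induced antagonists. ERF is a repressor of the ETS family of transcription factors, which ERK keeps out of the nucleus while RAS signals. The design therefore asks how far the response to losing RAS depends on ERF.

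The labels were first set against the targeted genes. Erf, in log2 signal minus each array's 75th percentile, read 3.92 and 5.31 in the labelled knockout after OHT (pools A2 and B2) and 3.45 and 5.65 untreated. In the wild type it read 4.98 and 4.93 after OHT (pools A1 and B1) and 5.12 and 5.43 untreated, so A2 was low and B2 lay at the wild type level. Hras and Nras probes, from genes the labels give as deleted, were well above background on all 8 arrays. The labels and files do not place these probes relative to the deletions, so the text speaks of the labelled knockout. Of the 8 ES cell markers 7 were well above background on all 8 arrays. Their summed level, relative to the 75th percentile on a linear scale, ran from 203 to 561 in the labelled knockout after OHT, from 229 to 551 there untreated, from 461 to 546 in the wild type after OHT and from 359 to 511 there untreated. Of the other lists, 5 of 6 trophoblast, 5 of 5 primitive endoderm, 6 of 6 fibroblast, 3 of 3 neuroectoderm and 1 of 4 mesoderm markers were also well above background on every array. The trophoblast sum ran from 14.1 to 15.3 in the labelled knockout after OHT against 11.3 to 12.4 untreated, and from 23.0 to 25.7 in the wild type after OHT against 9.61 to 10.8 untreated. Its genes did not move together: of the 5 tested, Gata3 and Tfap2c had higher means after OHT in both genotypes (paired limma adjusted p 0.0356 and 0.0688 in the labelled knockout, 0.00373 and 0.000332 in the wild type), while Cdx2 stood at -0.77 in the labelled knockout and -1.33 in the wild type, and Hand1 at -0.83 and -0.39. The list median was 0.02 in the labelled knockout and -0.17 in the wild type. The part of such cells in the results below was not tested.

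RefSeq promoters (GRCm38.p6) were found for 5 of the 6 members, and those of Spry2, Spred1 and Spred2 are printed. Spry2 and Spred1 had every OHT array below every untreated array, while Spry1, Il17rd and Spred2 did not. Spred2 was lower after OHT in pools A2, B2 and A1. It was higher in B1 alone, by 2.67, where 1 untreated spot was low. Each run is the 250 bases before the annotated start, 5′ to 3′ on the gene's strand, with the core GGAA of an ETS site, on either strand, in capitals. They are chr14:105896820-105897069 (minus strand) for Spry2, chr2:117120821-117121070 (plus strand) for Spred1 and chr11:19924192-19924441 (plus strand) for Spred2.
Spry2: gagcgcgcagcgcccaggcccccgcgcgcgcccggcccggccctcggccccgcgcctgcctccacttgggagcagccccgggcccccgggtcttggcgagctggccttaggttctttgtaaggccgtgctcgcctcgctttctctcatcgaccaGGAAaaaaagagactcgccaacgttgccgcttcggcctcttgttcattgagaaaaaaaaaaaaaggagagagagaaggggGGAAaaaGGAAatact
Spred1: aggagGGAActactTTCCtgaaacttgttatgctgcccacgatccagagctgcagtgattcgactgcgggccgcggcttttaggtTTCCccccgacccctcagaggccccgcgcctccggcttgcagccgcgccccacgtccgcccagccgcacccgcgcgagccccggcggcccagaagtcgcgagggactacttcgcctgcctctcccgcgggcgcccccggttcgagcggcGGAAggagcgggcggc
Spred2: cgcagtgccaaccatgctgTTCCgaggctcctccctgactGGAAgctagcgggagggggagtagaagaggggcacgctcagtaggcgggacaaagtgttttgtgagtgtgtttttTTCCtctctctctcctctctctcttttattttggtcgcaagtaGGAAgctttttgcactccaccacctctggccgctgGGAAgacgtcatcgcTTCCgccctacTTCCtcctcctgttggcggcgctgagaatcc
GGAA stood 3 times in the Spry2 run, 4 times in Spred1, 7 times in Spred2, once in Spry1 and 4 times in Il17rd. Over 32851 promoters of the same length 93.4% held it, with a median of 3 matches and quartiles of 2 and 4. The longer form CCGGAA, on either strand, was in 0 of the 5 members and in 12.0% of all promoters. GGAAGT, on either strand, was in 1 of the 5, Spred2, against 19.7% of all promoters. That match lies on the opposite strand, begins 33 bases before the start and shares its core with 1 of the 7 capital runs. These are letters in a window and say nothing of binding. The 5 runs held 54.4 to 70.8% G and C, against a median of 52.4%, and 10 to 31 CG pairs, against a median of 6.

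After OHT, 5 of the 6 members were lower in the wild type on the group means, beside 57.0% of all genes. In the labelled knockout 5 of 6 were lower, beside 47.7% of all genes. Spry4, Spry2, Spred1 and Spry1 were lower in all 4 pools, by more in each wild type pool than in either knockout pool. Spry1 changed by only -0.05 in knockout pool B2. Il17rd was lower in both wild type pools and stood at 0.22 and -0.04 in knockout pools A2 and B2. The genotype difference passed no test, as given below. The median log2 change of the 6 was -0.59 in the labelled knockout and -1.23 in the wild type, beside 0.02 and -0.05 over all 15180 genes. Whether fewer cells express a gene or each cell holds less of its RNA cannot be told apart in these bulk samples. With limma on the 4 group means, a model without pools, 0 members and 0% of all genes passed an adjusted p of 0.05 in any of the 5 comparisons. At an unadjusted p under 0.05, 2 members were lower in the labelled knockout, where 1.37% of all genes were, and 5 in the wild type, where 3.39% of all genes were. A second fit, called the paired fit below, compared each pool with itself, without the spots of dark patches (stretches of an array whose spots read low as a group) and with a trended robust variance. It was chosen with earlier results of these data known. It called 3 members lower in the labelled knockout, beside 9.04% of all genes, and 5 lower in the wild type, beside 10% of all genes. The pool block on its own called 0 members and 0 genes, with 3 members lower at an unadjusted p under 0.05 in the labelled knockout (8.45% of all genes) and 5 in the wild type (13.8%). The calls given below thus rest on the paired fit, whose 2 residual degrees of freedom are few. Its p-values therefore lean on the spread of other genes of like signal.

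**Figure D1:**
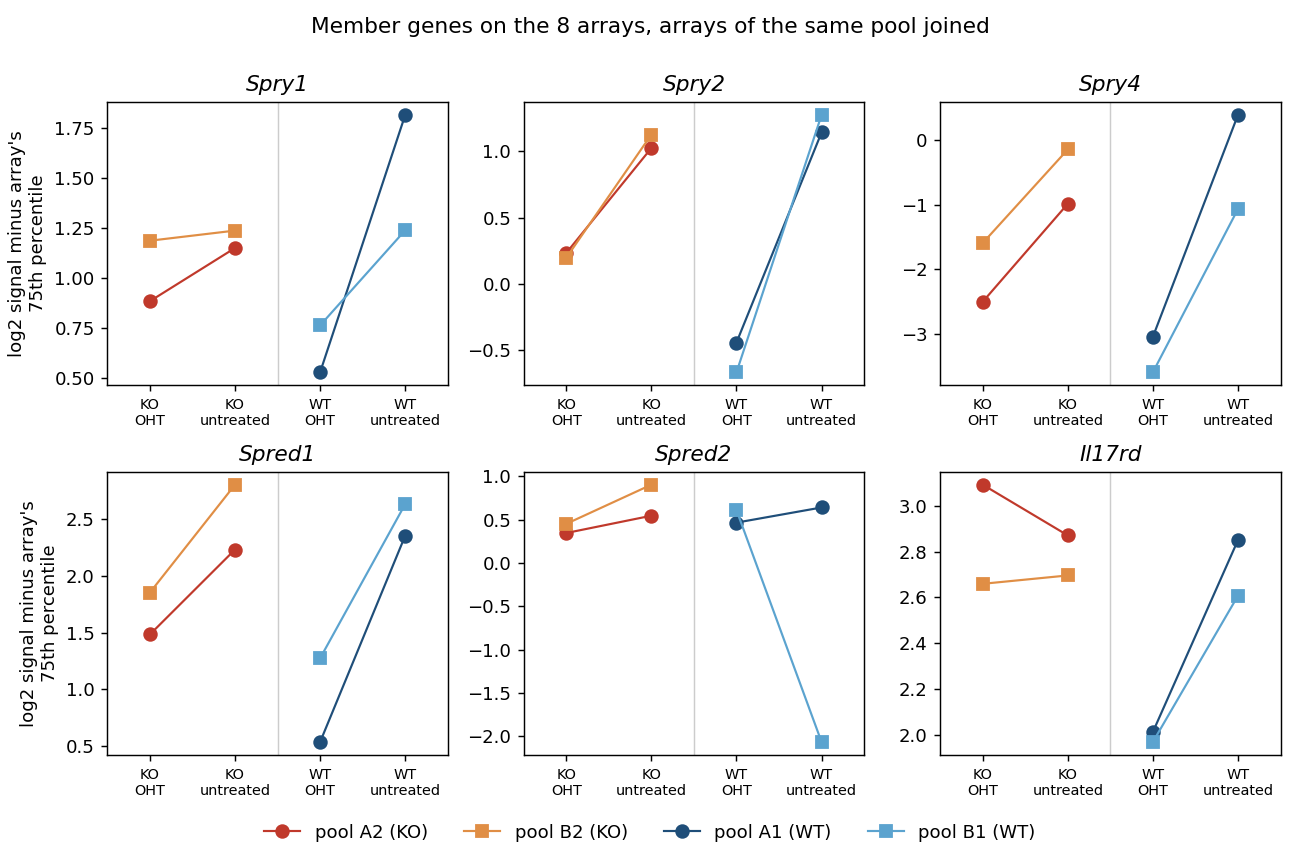
Log2 signal minus the array's 75th percentile for the 6 members (Spred1 by its brighter probe) in labelled knockout (KO) and wild type (WT) groups; each point is 1 array, lines join the 2 arrays of a pool, and each panel has its own scale. Spry1, Spry2, Spry4 and Spred1 lie lower after OHT in all 4 pools, and Spred2 has 1 low point, at -2.07 in untreated wild type pool B1.

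Spry4, an inhibitor that acts on the path to RAS and RAF downstream of FGF receptors, changed most. It read -2.50 and -1.59 in the labelled knockout after OHT (pools A2 and B2) against -0.99 and -0.15 untreated. In the wild type it read -3.05 and -3.60 after OHT (pools A1 and B1) against 0.39 and -1.07 untreated. Every OHT array lay below every untreated array, with a gap of 0.53 between the nearest of them. The difference of means was -1.48 in the labelled knockout, a 2.80-fold lower signal, and -2.98 in the wild type, a 7.90-fold lower one (SE 0.60 for both). Of the 15180 genes 510 had a lower log2 difference than Spry4 in the labelled knockout, and 2 in the wild type. Spry4 fell in both genotypes in the paired fit (limma adjusted p 0.00864 in the labelled knockout, 0.000340 in the wild type), while the group means gave adjusted p values of 1.00 and 0.449. Without pool A2 or without pool B2 the knockout call was lost, at adjusted p 0.0687 and 0.0506. With normexp background correction, which raises the floor of dim signals, the wild type change was -1.98.

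Spry2, a Sprouty that binds adaptor proteins below receptor tyrosine kinases, had the tightest values. It read 0.23 and 0.20 in the labelled knockout after OHT against 1.03 and 1.13 untreated, and -0.44 and -0.67 in the wild type after OHT against 1.14 and 1.28 untreated. The 4 OHT arrays lay at least 0.79 below the 4 untreated ones, and within OHT both wild type arrays lay below both knockout arrays. The difference was -0.86 ± 0.17 in the labelled knockout (1.82-fold lower) and -1.77 ± 0.17 in the wild type (3.40-fold lower; SE, 2 arrays a group). Spry2 fell in both genotypes in the paired fit (limma adjusted p 0.00677 in the labelled knockout, 0.000255 in the wild type). On the group means its adjusted p was 1.00 in the labelled knockout and 0.109 in the wild type, the lowest of the members. With array weights, the wild type value of Spry2 alone of the 6 passed, at adjusted p 0.0447.

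Spry1, a Sprouty best known from kidney development, where it limits signalling by the RET receptor, changed less. It read 0.88 and 1.19 in the labelled knockout after OHT against 1.15 and 1.24 untreated, so those groups overlapped. It read 0.53 and 0.76 in the wild type after OHT against 1.81 and 1.24 untreated, without overlap. The 2 wild type pools differed, at -1.28 in A1 and -0.47 in B1, and the knockout pools gave -0.27 in A2 and -0.05 in B2. The difference was -0.16 ± 0.25 in the labelled knockout and -0.88 ± 0.25 in the wild type. The paired fit called Spry1 lower in the wild type, at a limma adjusted p of 0.0264, and gave 0.485 in the labelled knockout. The wild type call was lost without pool A1, at -0.48 and adjusted p 0.232.

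Spred1, which brings the RAS-inactivating protein neurofibromin to the membrane, is the member with several probes. Its brightest probe, A_55_P2079430, read 1.48 and 1.85 in the labelled knockout after OHT against 2.23 and 2.80 untreated. In the wild type it read 0.54 and 1.27 after OHT against 2.35 and 2.63 untreated. All OHT arrays lay below all untreated arrays. On this probe pool B exceeded pool A of the same genotype and treatment each time, an order the other probes below did not repeat throughout. The difference was -0.85 ± 0.34 in the labelled knockout (1.80-fold lower) and -1.59 ± 0.34 in the wild type (3.01-fold lower). Spred1 fell in both genotypes in the paired fit (limma adjusted p 0.00634 in the labelled knockout, 0.000332 in the wild type).

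The second Spred1 probe of the same transcript, A_55_P2079425, gave 0.90 and 0.70 in the labelled knockout after OHT against 1.55 and 1.61 untreated. It gave -0.33 and 0.15 in the wild type after OHT against 1.36 and 1.51 untreated. Its differences, -0.78 and -1.53, were close to those of the first probe, -0.85 and -1.59. The third probe, A_55_P2090045, designed for another transcript accession of the gene, was dim. It was well above background on 0 of 2 arrays in the labelled knockout after OHT against 2 of 2 untreated, and on 0 of 2 in the wild type after OHT against 1 of 2 untreated. Its measured means were -4.79 in the labelled knockout after OHT against -4.12 untreated, and -5.32 in the wild type after OHT against -4.18 untreated. As a bound against the dimmest probe well above background, it was at least 1.36-fold lower after OHT in the labelled knockout; the wild type is given no bound, as 1 of its untreated arrays did not measure it. Tested by probe in the paired fit it passed in neither genotype (limma adjusted p 0.525 in the labelled knockout, 0.305 in the wild type). All 3 probes had lower values after OHT in each of the 4 pools.

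**Figure D2:**
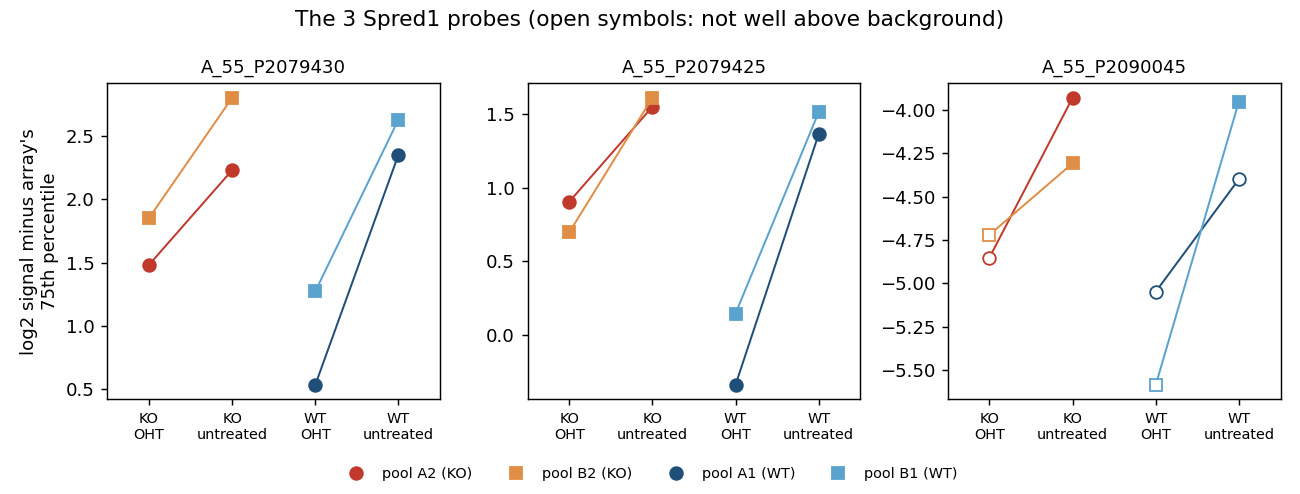
Log2 signal minus the array's 75th percentile for the 3 Spred1 probes by group, 1 point an array, lines joining the arrays of a pool, with a scale of its own for each panel. Filled points are well above background; the third probe is open on all 4 OHT arrays and on untreated wild type pool A1.

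Spred2, a relative of Spred1 with the same kind of action on RAS signalling, showed no common change. It read 0.34 and 0.45 in the labelled knockout after OHT against 0.54 and 0.90 untreated, and 0.46 and 0.61 in the wild type after OHT against 0.64 and -2.07 untreated. Apart from the -2.07 of untreated wild type pool B1, the 8 arrays spanned 0.34 to 0.90. That spot lay 2.60 below the probe's own median over the arrays, and was neither marked as an outlier nor in a dark patch. Of its 9 nearest measured spots 2 were also more than 1 log2 unit low on that array (-1.71 and -1.62), while their median was -0.02. The difference was -0.33 ± 0.82 in the labelled knockout and 1.25 ± 0.82 in the wild type. That SE is shared by all 4 groups, and the low spot widens it. The SD of the 2 arrays was 0.07 after OHT and 0.25 untreated in the labelled knockout, against 0.10 and 1.91 in the wild type. The knockout arrays after OHT both lay below those untreated. Without the array of the low spot the wild type value was -0.10, and within slide 1 it was -0.17. Spred2 was not called in the paired fit, which shares the spread between genotypes in the same way (limma adjusted p 0.839 in the labelled knockout, 0.490 in the wild type). Without pool A1, which leaves the pool with the low spot alone, it was called higher in the wild type at adjusted p 0.0185.

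Il17rd, the FGF receptor antagonist, had lower values after OHT in the wild type and overlapping ones in the labelled knockout. It read 3.09 and 2.66 in the labelled knockout after OHT against 2.87 and 2.70 untreated, and 2.01 and 1.97 in the wild type after OHT against 2.85 and 2.61 untreated. The 2 wild type arrays after OHT lay below the other 6, which spanned 2.61 to 3.09. The difference was 0.09 ± 0.22 in the labelled knockout and -0.74 ± 0.22 in the wild type (1.67-fold lower). Il17rd fell in the wild type in the paired fit, with a limma adjusted p of 0.00232, and its knockout value was not called (0.861). The wild type call was lost without pool A1 (0.0944) and without pool B1 (0.0604).

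Over all 8 arrays, 3 of the 6 members had every OHT array below every untreated array, as 4.67% of the 15081 genes with a value on each array did. The members were also lower after OHT in all 4 pools in 4 of 6 cases, Spry1 being the fourth, beside 24.2% of those genes. Both arrays of each pool lay on the same slide, so no pool's change mixes slides. Slide 1 held pools A1, A2 and B2, and slide 2 held B1. Blocking on the slide gave adjusted p values in the wild type from 0.265 for Spry2 to 0.831 for Spred2, and none passed.

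The next comparison asks whether the response to OHT differed by ERF genotype. In 5 of the 6 members the change was higher, that is less negative or positive, in both knockout pools than in both wild type pools, as it was in 24.2% of all genes. For Spry4 the pool changes were -1.52 and -1.45 in A2 and B2, against -3.44 and -2.53 in A1 and B1. For Spry2 they were -0.79 and -0.93 against -1.59 and -1.95, and for Spred1 -0.75 and -0.95 against -1.82 and -1.36. For Il17rd they were 0.22 and -0.04 against -0.84 and -0.64. For Spry1 they were -0.27 and -0.05 against -1.28 and -0.47. In each of these 5 genes both knockout pools lay above both wild type pools, by 0.21 (Spry1) to 1.01 (Spry4) at the nearest. Spred2, the exception, gave -0.20 and -0.45 against -0.17 and 2.67.

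**Figure D3:**
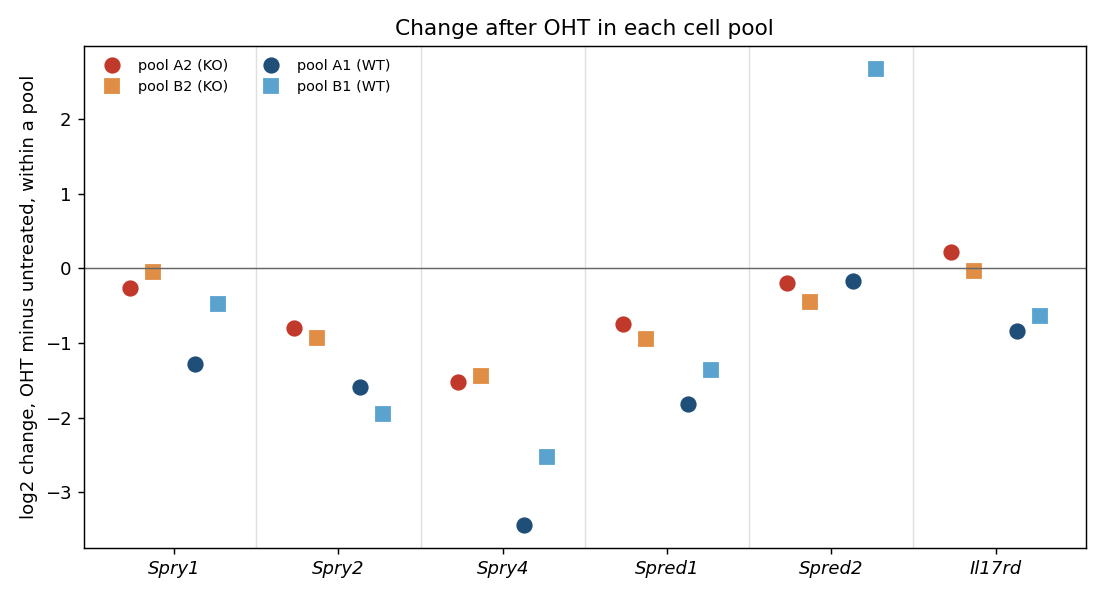
Log2 change after OHT within each cell pool, knockout pools A2 and B2 left of wild type pools A1 and B1, for the 6 members; each point is the difference of 2 arrays. In every member but Spred2 both knockout points lie above both wild type points.

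The difference of the 2 changes, labelled knockout minus wild type, was 1.50 ± 0.85 for Spry4, 0.90 ± 0.24 for Spry2, 0.83 ± 0.31 for Il17rd, 0.74 ± 0.48 for Spred1, 0.72 ± 0.36 for Spry1 and -1.57 ± 1.16 for Spred2. None passed: limma gave each an adjusted p of 1.00 on the group means and of 0.159 (Il17rd) to 0.811 (Spred2) in the paired fit. The paired fit called 0 of all 15180 genes for this difference. At an unadjusted p under 0.05 it had 5 members higher, where 3.83% of all genes were, and the group means had 2, Spry2 and Il17rd, where 1.09% were. Within slide 1, which holds 1 wild type pool, the differences were 1.95 for Spry4, 0.73 for Spry2, 0.93 for Il17rd, 0.97 for Spred1 and 1.13 for Spry1. Leaving out 1 array, the lowest values were 0.77 for Spry4 and 0.43 for Spry1 (both without untreated wild type replicate 1) and 0.37 for Spred1 (without wild type OHT replicate 1), and normexp gave 0.80 for Spry4. Blocking on the slide left each value as on the group means, at adjusted p 1.00.

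Set as a share, the log2 change in the labelled knockout was 53.5% of that in the wild type for Spred1, 49.7% for Spry4, 48.8% for Spry2 and 18.0% for Spry1, while Il17rd had the opposite sign (-12.5%). A smaller change in the knockout was common among genes that were lower in the wild type. Of the 865 genes with a wild type change at or below that of Il17rd, the median share was 47.0%, with a median change of -0.49 in the labelled knockout and -1.01 in the wild type. Of the 863 of them measured on every array, 53.7% had both knockout pools above both wild type pools. Those genes were chosen by their wild type values, which by itself favours a larger wild type change, and Spred1, Spry4 and Spry2 lay near their median share.

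**Figure D4:**
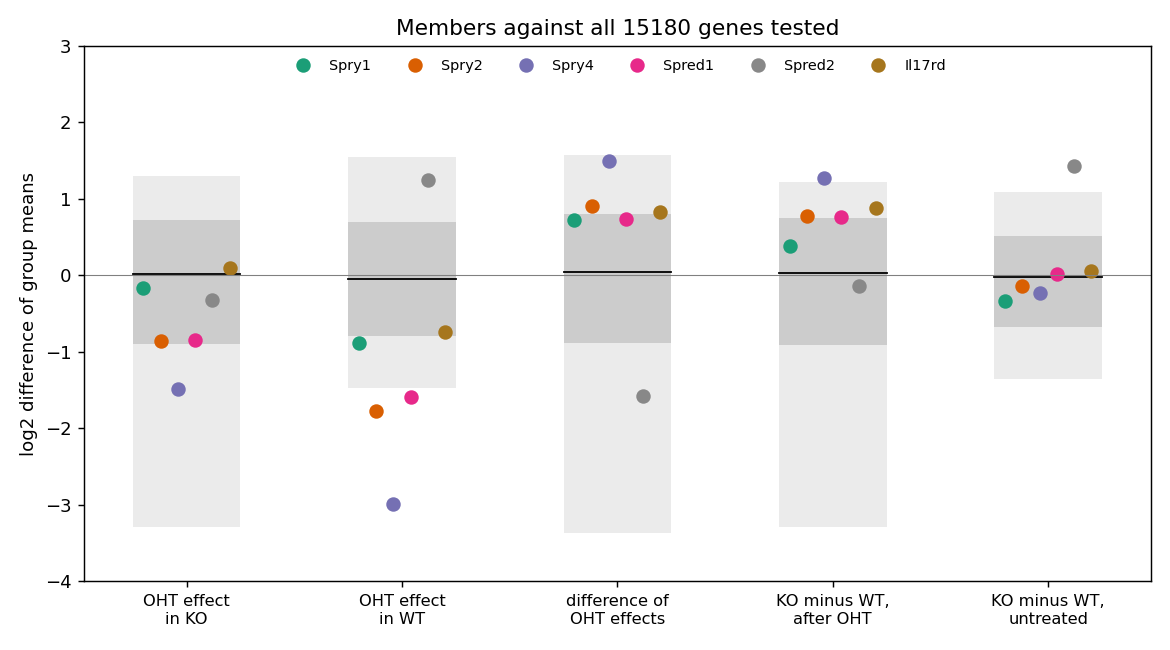
Log2 differences of group means for the 6 members (points) in the 5 comparisons, over all 15180 genes tested (dark grey: 5th to 95th percentile; light grey: 1st to 99th; line: median). In the wild type Spry2, Spry4 and Spred1 lie below the light band at -1.77, -2.98 and -1.59, and in untreated cells the members but Spred2 lie between -0.33 and 0.05.

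The last comparisons set the genotypes against each other. After OHT, 5 of the 6 members had both labelled knockout arrays above both wild type arrays, as 15.5% of all genes did, by 1.27 ± 0.60 for Spry4, 0.88 ± 0.22 for Il17rd, 0.77 ± 0.17 for Spry2, 0.76 ± 0.34 for Spred1 and 0.39 ± 0.25 for Spry1. Spred2 differed by -0.14 ± 0.82, with the shared SE that the low untreated wild type spot widens. At an unadjusted p under 0.05, 2 members, Spry2 and Il17rd, were higher, beside 1.4% of all genes, and limma's adjusted p was 0.999 for each of the 6. Within slide 1 the values were 1.00 for Spry4, 0.86 for Il17rd, 0.66 for Spry2, 1.13 for Spred1 and 0.51 for Spry1. Without wild type OHT replicate 1 the value was 0.39 for Spred1, without knockout OHT replicate 2 it was 0.82 for Spry4 and 0.24 for Spry1, and Spry4 stood at 0.77 with a slide block and 0.63 with normexp. These differences use the same OHT arrays as the changes above and are no separate support for them.

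The same comparison was made in untreated cells. The differences were 0.05 ± 0.22 for Il17rd, 0.02 ± 0.34 for Spred1, -0.13 ± 0.17 for Spry2, -0.23 ± 0.60 for Spry4 and -0.33 ± 0.25 for Spry1, each within 1.5 SE. Spred2 stood at 1.44 ± 0.82, again with the low spot in the wild type, and at 0.08 without it. None of the 6 was past an unadjusted p of 0.05, as 1.36% of all genes were, and limma's adjusted p was 1.00 for each. Within slide 1 Spry4 stood at -0.96 and Spry1 at -0.62, and with the slide as a block at -0.73 and -0.42. Without untreated wild type replicate 1 Spry1 stood at -0.05. The direction for Il17rd, Spred1 and Spry4 changed with single arrays left out. Both untreated knockout arrays lay below both untreated wild type arrays for Spry1 (1.149 and 1.236 against 1.813 and 1.238) and Spry2 (1.03 and 1.13 against 1.14 and 1.28). The arrays of the other members overlapped. A gene's difference of OHT effects, given above, takes in its untreated difference.

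Other genes of the pathway were described from lists of their roles. In a list of 15 other ERK feedback and transcriptional target genes, the paired fit called 8 lower and 1 higher in the labelled knockout and 9 lower and 0 higher in the wild type. Over all genes 9.04% were called lower and 4.43% higher in the labelled knockout, and 10% lower and 7.54% higher in the wild type. Its median log2 change on the group means was -0.44 in the labelled knockout and -0.86 in the wild type. Dusp6, a phosphatase that inactivates ERK, read 3.38 and 3.15 in the labelled knockout after OHT against 5.32 and 5.25 untreated, and 2.62 and 2.60 in the wild type after OHT against 4.89 and 4.97 untreated. Its 4 OHT arrays were all below its 4 untreated ones, with changes of -2.02 in the labelled knockout and -2.32 in the wild type. Dusp4, a related phosphatase, changed by -2.02 in the labelled knockout and -2.40 in the wild type, and the ETS activator Etv4 by -1.83 and -2.11. Etv1, another ETS activator, changed by -1.59 in the labelled knockout and -1.62 in the wild type. For Dusp6, Dusp4, Etv4 and Etv1 the limma adjusted p in the paired fit was at most 0.000339 in the labelled knockout and 8.89e-05 in the wild type. Myc, a transcription factor of growth, changed by -1.19 in the labelled knockout and -2.38 in the wild type. The 1 called higher was Spsb1, an adaptor of a ubiquitin ligase complex, at 0.56 in the paired fit in the labelled knockout, named after its value was seen.

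Of 11 FGF ligand and receptor genes the paired fit called 2 lower and 1 higher in the labelled knockout, and 3 of each in the wild type. The shares over all genes are those given above. The ligand gene Fgf5, a marker of the primed epiblast, changed by -1.56 in the labelled knockout and -1.67 in the wild type, and Fgf15 by -1.31 and -1.16. The receptor gene Fgfr1 was higher, by 0.34 in the labelled knockout and 0.75 in the wild type, and Fgf4, the main FGF ligand of ES cells, was 0.83 higher in the wild type and stood at 0.18 in the labelled knockout. Each of these passed the paired fit in the genotypes named, with limma adjusted p values from 0.000656 to 0.0358, save Fgf4 in the labelled knockout (0.580). Fgfr2 (0.77 in the paired fit) and Fgfr4 (-0.44), named after their values were seen, were the others called in the wild type.

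Calls among the genes between the receptors and ERK, and the partners of Sprouty, can be read against the shares over all genes. These were 9.04% lower and 4.43% higher in the labelled knockout, and 10% lower and 7.54% higher in the wild type. Of 13 adaptors, exchange factors and GTPase-activating proteins, 2 were lower and 1 higher in the labelled knockout and 2 lower in the wild type. The 2 were the adaptor gene Shc1 and the exchange factor gene Rasgrp2 in both genotypes, and the 1 was Frs3, an adaptor of FGF receptors. In the paired fit Shc1 stood at -0.38 in the labelled knockout and -0.34 in the wild type, and Rasgrp2 at -0.27 in each. Frs3 was well above background on both knockout arrays after OHT and on neither untreated, and was at least 3.65-fold higher after OHT there. It passed the filter for testing through that group alone, so its call as higher there is no separate support. Of 10 RAF, MEK and ERK kinase genes, 3 were lower in the labelled knockout (among them Braf at -0.43 and Rps6ka1 at -0.25 in the paired fit) and 1 in the wild type (Braf, -0.54). Of 13 partners and regulators of Sprouty, 1 was higher in both genotypes, the kinase gene Tesk2, at 0.45 in the labelled knockout and 0.35 in the wild type. Of 5 tested family relatives, among them the Spred relative Spred3 and the RAS regulator Lztr1, 0 passed in either genotype, and limma's unadjusted p in the paired fit was under 0.05 for Lztr1 in the labelled knockout alone (0.0166). Spry3 was on the array and was not tested, being well above background on both arrays of no group.

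**Figure D5:**
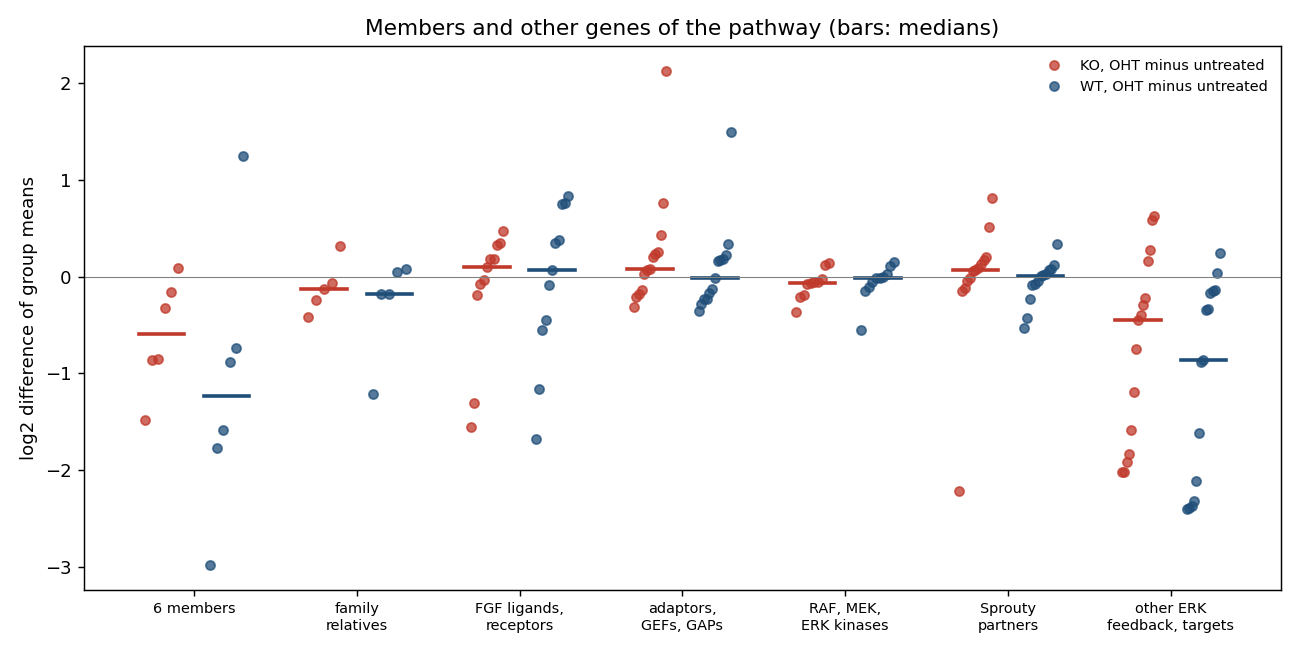
Log2 difference of group means after OHT for the 6 members and 6 lists of pathway genes, labelled knockout (KO) left of wild type (WT); each point is 1 gene, bars are medians. The members and the other ERK feedback and target genes have medians of -0.59 and -0.44 in KO and -1.23 and -0.86 in WT; the lowest KO point among Sprouty partners is Siah1a, which stood at 0.16 with dark patches left out.

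The genes whose values followed a member most closely over the 8 arrays were found by Pearson's r among 4372 genes with an SD of at least 0.5. The arrays share pools and treatment, so these are descriptions. For Spry2 they were Zfp423 (r = 0.995), Slc7a7 (0.994) and Bspry (0.984), and for Spred1 Utf1 (0.989), Epha8 (0.985) and Enpp3 (0.981). For Spry4 they were Emilin3 (0.964), Ajm1 (0.954) and Fam169a (0.947), and Emilin3 also led for Spry1 (0.946), before Olfr836 (0.931) and Rab25 (0.925). Each of these 11 genes was lower after OHT on the group means of both genotypes, with log2 changes of -0.41 to -1.14 in the labelled knockout and -1.06 to -1.89 in the wild type. For Il17rd they were Slc39a8 (0.934), Syt16 (0.928) and Galnt3 (0.924). Slc39a8 changed by 0.10 in the labelled knockout and -0.73 in the wild type, Syt16 by 0.65 and -1.45, and Galnt3 by -0.54 and -1.91. For Spred2 they were Nap1l4 (0.984), Atp6v1h (0.983) and Bves (0.949), a likeness that rests on the 1 array with its low spot. Among the members r was 0.919 for Spry4 and Spry2, 0.913 for Spred1 and Spry2, and 0.906 for Spry4 and Spry1, and from -0.33 to -0.03 for Spred2 with each of the other 5.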

How the data were processed

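Total RNA of 8 samples was labelled with Cy3 and hybridised to 1 Agilent array each, per the labels. The deposited scanner files hold spot intensity from Agilent Feature Extraction, version 11.5.1.1 in the file headers, with local background subtracted and no scaling between arrays. Flags, given as 0 or 1 per the file headers, say whether a spot was non-uniform, saturated or well above background. An alternative used the deposited median intensity of spots and local background (normexp, offset 50). The authors' own normalisation and tests are not given in these sources, and the series value table was not used.

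Control and outlier spots were left out, spots of a probe averaged as log2 processed signal, and each array's 75th percentile subtracted. Probes were named by accession through RefSeq tables (GRCm38.p6): 28026 matched 21154 genes. A probe was tested if any group had it well above background on both its arrays, and the probe with the highest mean stood for a gene, which left 15180. Between 54.0 and 63.6% of spots were well above background and 0 were saturated. The median SD of repeat spots was 0.05 to 0.07 log2 units, and the number of arrays limits the precision.

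Groups came from titles and pools from source names. Differences were tested two-sided with limma 3.58.1 in R 4.3.3 on 4 group means (4 residual degrees of freedom), with Benjamini-Hochberg adjustment over all genes and a threshold of 0.05. The paired fit took pools as blocks, left out dark patches (a local median over 7 rows by 5 columns under -0.5 log2) and used a trended robust variance. Replicates' deviations correlated at 0.443 in the labelled knockout (OHT with untreated) and at 0.658 in the wild type, and the source names give the pairing. Same-numbered samples of the 2 genotypes correlated at 0.314 after OHT and 0.474 untreated, but no label ties those pools to each other. On the group means p-values measure the spread between pools of clones. In the paired fit they measure how the change after OHT varied between pools of a genotype. In both fits limma draws each gene's spread toward that of other genes, so no p-value rests on the gene's own pools alone. The fits were also run on simulated data with independent genes and no dark patches or low spots. Those runs do not vouch for the calls given here. Some genes and an allele are not reported here. Beside the members, Erf and the RAS genes, up to 3 genes per list and comparison were named by smallest p among those that passed, and the 3 genes most like each member. Members, lists and the paired fit were chosen with earlier results of these data known. Python 3.11.15, numpy 2.4.6, pandas 2.3.3 and matplotlib 3.10.9 made tables and figures.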

Additional observations from a re-analysis of the deposited data

Results flagged for a closer look

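Frs3, which encodes an adaptor of FGF receptors, is named because its measured changes after OHT were positive in both knockout pools and slightly negative in both wild type pools. It read -2.80 and -2.83 in the labelled knockout after OHT against -4.71 and -5.19 untreated, and -3.39 and -4.85 in the wild type after OHT against -3.35 and -4.63 untreated. It was well above background on both knockout arrays after OHT and on neither untreated, which makes it at least 3.65-fold higher after OHT there, and on 1 of 2 arrays in each wild type group. Frs3 thus entered the tests only through the group where it is high, and its call there is no separate support. Taken from the measured values, dim ones included, the difference of the changes, labelled knockout minus wild type, was 2.26 ± 0.86 (SE), whose size is not fixed because the untreated knockout level is only a bound, with a limma adjusted p of 1.00 on the group means and 0.383 in the paired fit. The wild type changes, -0.04 and -0.22, are small beside the distance between its pools and passed no test (paired log2 change -0.12, limma adjusted p 0.875).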

How the results depend on the processing

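Of 768 values of the members under alternative settings, 711 kept their direction and side of the threshold, 44 kept the direction and passed, and 13 turned round. Between untreated genotypes Il17rd turned to -0.0168 with a slide block, to -0.0666 within slide 1 and without wild type replicate 2, and to -0.03 without knockout replicate 1, with 0.18 as the highest value without 1 array. Its knockout OHT change was -0.12 without knockout OHT replicate 1, 0.31 without OHT replicate 2 and -0.0639 in the paired fit without pool A2. Spry4 between untreated genotypes was 0.50 without wild type replicate 1, 0.19 without knockout replicate 1 and -0.96 without wild type replicate 2. Spred1 was -0.11 without wild type replicate 1, -0.26 without knockout replicate 2 and 0.31 without knockout replicate 1. Spred2 in the wild type was -0.17 within slide 1, -0.10 without untreated replicate 2, 2.60 without untreated replicate 1 and -0.16 in the paired fit without pool B1. The cause was not tested, beyond the low spot described for Spred2.

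Counts of calls differed between fits. With the pools as replicate block alone, limma called 0 members and 0 genes. The paired fit called 5 members and 2670 genes in the wild type and 3 members and 2044 genes in the labelled knockout. With pools as a random block, an alternative chosen after seeing the data, it was 4 members and 1033 genes in the wild type and 1 member and 120 genes in the labelled knockout. Leaving 1 pool out of the paired fit, also chosen after seeing the data, gave 4 to 5 members in the wild type and 2 to 3 in the labelled knockout. Without pools A2, B2, A1 and B1 in turn, it called 443, 719, 363 and 415 genes in the labelled knockout, 2915, 2905, 260 and 255 in the wild type, and 31, 55, 0 and 26 for the difference. Without pool A1 the 4 were Spry2, Spry4, Spred1 and Spred2, and without pool B1 they were Spry1, Spry2, Spry4 and Spred1. On the group means in the wild type, array weights called 1 member and 13 genes, a trended robust variance 3 genes and probes well above background on all 8 arrays 4 genes. Leaving out single arrays gave 0 to 29 genes in the wild type, 0 to 384 in the labelled knockout, 0 to 325 for the difference, 0 to 21 between untreated groups and 0 to 386 between OHT groups. Pools are nested in genotype, so a pool block could not be fitted to the comparisons between genotypes. A replicate block by number over both genotypes, chosen after seeing the data, changed no call; with dark patches left out and a trended robust variance it called 2 members (Spry2 and Spred1) and 111 genes in the wild type and 0 members and 5 genes in the labelled knockout. In that fit the members' limma adjusted p values between genotypes were 0.298 (Il17rd) to 0.926 (Spred2) after OHT and 0.853 to 0.966 untreated. Signal over background limits the third Spred1 probe and Frs3, and 2 arrays a group limit every value.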
